A study of Mus musculus with 2 samples.

Results

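The genes described here encode the proteins of the mitochondrial ribosome whose symbols start with Mrpl (large subunit) or Mrps (small subunit) followed by a number. They were taken as every annotated gene with reads in either library whose symbol has that form. The rule found 78 genes among the 14198 annotated genes with reads, 49 of them named for the large subunit and 29 for the small subunit, and all 78 are annotated as protein-coding. The annotation, GENCODE M21 on mm10, holds 78 such symbols, so none was without reads. The cells were C2C12, a mouse myoblast line that the labels trace to crushed thigh muscle of C3H mice and that came from ATCC. Total RNA was profiled by long-read RNA sequencing in 1 group of 2 biological replicates. The labels give no treatment, no time in culture and no differentiation state, and nothing in them says whether the replicates were separate cultures. The p-values below set differences between these 2 libraries against counting error only, and such differences may be technical. With 1 group there was no condition to compare.

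Mitochondria keep their own ribosomes, which translate the few messenger RNAs of the mitochondrial genome, all of them for subunits of the respiratory chain and the ATP synthase. Both ribosomal RNAs of these ribosomes come from mitochondrial DNA, while every protein is encoded in the nucleus, made in the cytosol and imported. Some proteins descend from bacterial ribosomal proteins, and others, the mitochondria-specific proteins, were added during evolution and cover or replace parts of the ribosomal RNA.

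The libraries held 773408 and 722647 reads on annotated genes in replicates 1 and 2. Levels are reads per 1000000 of these (CPM), and 3 reads, the count that an observed 0 allows, make 3.88 and 4.15 CPM. Each long read counts as 1 molecule, so CPM were not divided by length. All 6 genes listed as skeletal myoblast markers (Myod1, Myog, Des, Cdh15, Mymk and Itga7) were read in both libraries, with summed levels of 2331 and 2942 CPM. Des was highest, at 1139 and 1643 CPM, and Myog had 566 and 628 CPM. Des was the only 1 of the 6 called between the libraries (adjusted p 5.84e-14 by the exact binomial test described further on). The list was not used to place the cells in a differentiation state. The endothelial, blood, epithelial and neural markers summed to at most 3.88 CPM per list and library, with Cdh5, Ptprc, Epcam and Rbfox3 at 0, and of the adipocyte pair Adipoq was at 0 and Pparg had 9 and 13 reads. In bulk RNA fewer cells of a type and less RNA per cell cannot be told apart.

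Transcripts of all 78 genes were present, and each lay in the upper part of the range of protein-coding genes read in both libraries. All 78 genes were read in both libraries, and the smallest count of any of them in 1 library was 15 reads. For comparison, 10781 of 21951 annotated protein-coding genes (49.1%) were read in both. The 78 genes together took 6876 reads in replicate 1 and 6107 in replicate 2, which were 8890.5 and 8450.9 CPM, or 0.889% and 0.845% of annotated-gene reads. Their median level was 92.6 CPM, against 24.0 CPM over the protein-coding genes read in both, and it lay at percentile 80.0 of those genes. The lowest, Mrpl1, lay at percentile 51.0, and the highest, Mrps6, at percentile 94.2.

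The highest mean was 11.4 times the lowest, and the 90th percentile was 3.56 times the 10th, against 54.1 times over protein-coding genes read in both. Over the 4819 tested genes with 38 to 429 reads in all, the range of the members, this ratio was 6.02. Of the 78 genes, 4 lay below 50 CPM, 59 between 50 and 150 CPM, and the other 15 above 150 CPM, up to 287 CPM. These are descriptions of a named set, and no test was made of its width.

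**Figure D1:**
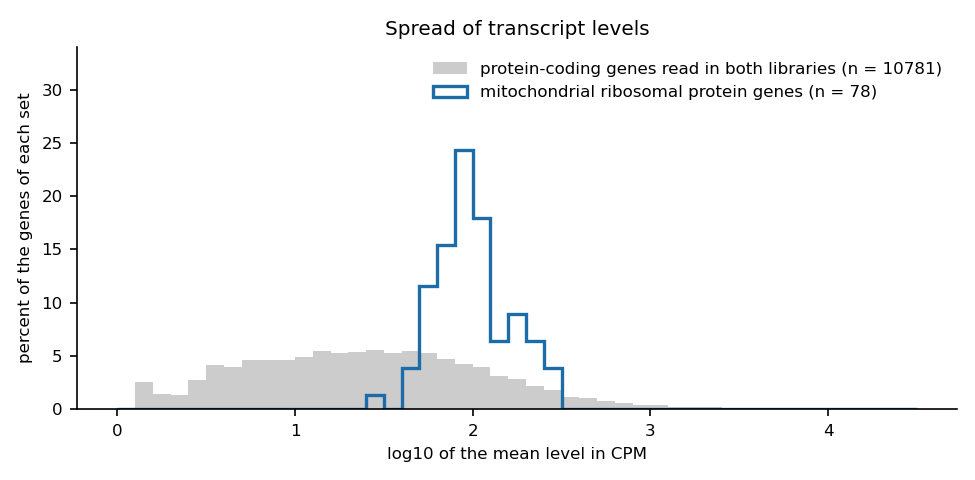
Distribution of mean levels, as log10 of CPM on the horizontal axis, in bins of 0.1. The vertical axis gives the percent of genes of each set in a bin. Grey bars are the 10781 protein-coding genes read in both libraries, and the blue outline is the 78 mitochondrial ribosomal protein genes, which lie between 25.2 and 287 CPM.

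Among the large-subunit proteins with a bacterial homologue (30 genes, median 96.2 CPM), Mrpl28, a protein of the ribosomal core, was highest. It had 272 and 281 CPM in replicates 1 and 2, a mean of 276 ± 6.64 (SD, n = 2), and the libraries lay close together. Mrpl17 followed with 191 and 223 CPM. Mrpl33 had 238 and 169 CPM. Mrpl12 encodes the stalk protein that recruits translation factors and also binds the mitochondrial RNA polymerase, and it had 220 and 184 CPM (mean 202 ± 25.3). Mrpl14, which lies at the interface of the subunits, had 178 and 196.5 CPM. Mrpl20 had 211 and 145 CPM. Mrpl4, a protein of the wall of the exit tunnel, had 159 and 191 CPM. Of these 7 genes, Mrpl17, Mrpl28, Mrpl14 and Mrpl4 were higher in replicate 2 and the others in replicate 1. The middle of the group was Mrpl27, at 102 and 87.2 CPM. At the low end stood Mrpl47, next to the tunnel exit, with 41.4 and 65.0 CPM, and Mrpl1, the protein of the mobile stalk beside the exit site for transfer RNA, with 29.7 and 20.8 CPM. Mrpl1 rested on 23 and 15 reads.

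The mitochondria-specific large-subunit proteins (19 genes) had a median of 91.0 CPM. Mrpl52 had the highest level of any member in a single library, 317 CPM in replicate 1, but only 187 CPM in replicate 2 (mean 252 ± 91.9). Mrpl45, which resembles an import motor protein and holds the ribosome at the inner membrane, had 225 and 266 CPM. Mrpl42 had 256 and 231 CPM. The middle gene, Mrpl49, had 89.2 and 92.7 CPM. Mrpl41 had 54.3 and 38.7 CPM, and Mrpl44, which has the fold of a ribonuclease III, had 41.4 and 44.3 CPM and was the lowest of these 19.

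Small-subunit proteins with a bacterial homologue (16 genes) had a median of 107 CPM. Mrps6 was the highest of all 78 genes and nearly the same in both libraries, with 287 and 286 CPM (mean 287 ± 0.420). Mrps24, which lines the channel where the messenger RNA enters, had 211 and 181 CPM. The middle of the group, Mrps15, had 116 and 115 CPM. Its lowest gene was Mrps2, with 28.4 and 58.1 CPM from 22 and 42 reads. Mrps2 and Mrpl23 were the 2 members whose CPM lay at least 2-fold apart. For Mrps2 the log2 ratio of replicate 2 over replicate 1 was 1.02, with an adjusted p of 0.101 in the exact test described further on.

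Small-subunit symbols outside the list of bacterial homologues used here (13 genes) had a median of 89.5 CPM and the narrowest range. It ran from 54.4 CPM (Mrps31, with 46.5 and 62.3 CPM in the libraries) to 133 CPM (Mrps30, with 123 and 144 CPM). The group includes Mrps18a, Mrps18b, Mrps30 and Mrps36. Its median and range are therefore not those of mitochondria-specific small-subunit proteins alone. Mrps30 is named for the small subunit but sits in the large subunit of the mature ribosome. The same holds for Mrps18a, 1 of 3 paralogs of a bacterial small-subunit protein, which had 119 and 111 CPM. Its paralog Mrps18b had 89.2 and 115 CPM, and Mrps18c, counted above with the homologues, had 86.6 and 73.3 CPM. The levels of Mrps18a and Mrps18b overlapped, and both levels of Mrps18c lay below theirs. This order was not tested, and in replicate 1 Mrps18c had 67 reads and Mrps18b 69. Mrps36, now known as a part of the 2-oxoglutarate dehydrogenase complex and not of the ribosome, had 90.5 and 88.6 CPM and was the middle of this group.

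**Figure D2:**
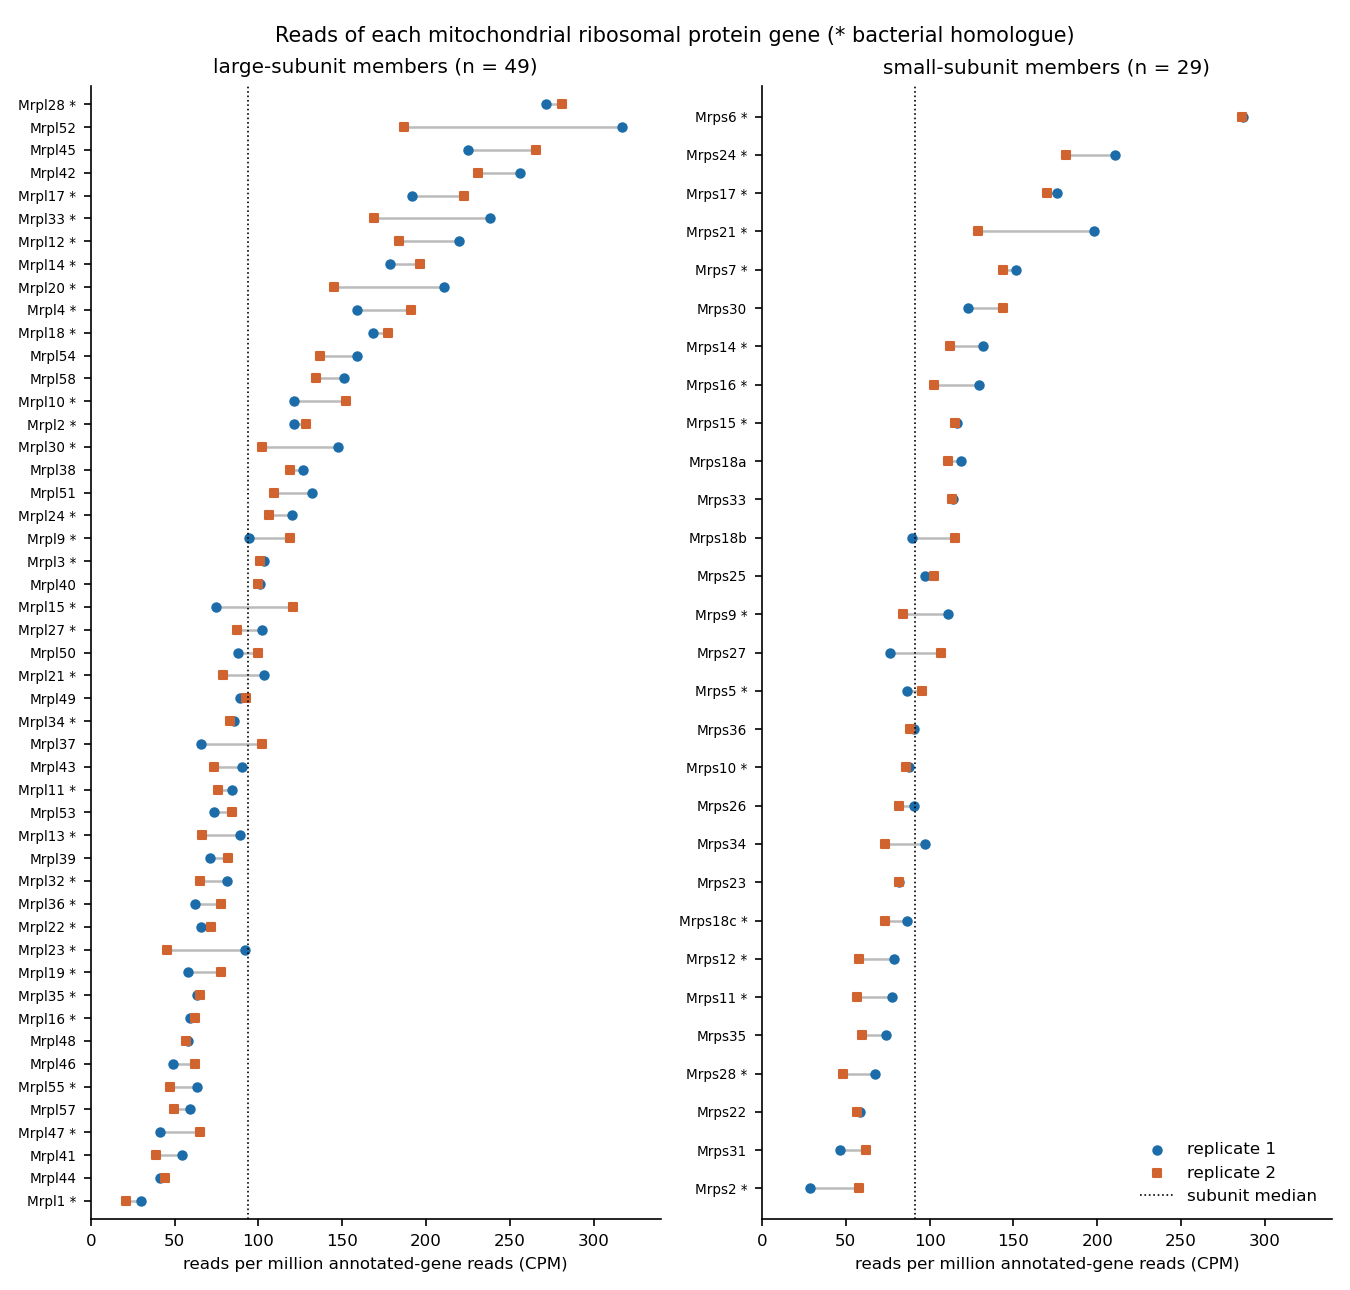
Level of each gene in CPM (horizontal axis) in replicate 1 (circles) and replicate 2 (squares), with a grey line joining the libraries and genes ordered by their mean within each subunit. Dotted lines are the subunit medians, 93.8 CPM for the large and 91.4 CPM for the small subunit. Asterisks mark genes on the list of bacterial homologues used here, which leaves out Mrps18a and Mrps18b.

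Some neighbours at the top of this order changed places between the libraries. The difference between Mrps6 and Mrpl28 was 10.5 CPM on means, against an SD of 6.64 for Mrpl28, and Mrpl52, the next by mean, led in replicate 1 and was behind 7 other members in replicate 2. Division by the length of the most read annotated transcript left 8 of the 12 highest genes among the 12 highest, with Mrpl52, whose transcript has 418 bases, first, and Mrpl17, whose annotated transcript has 7300 bases, at rank 63. Mrpl1 was last on both scales. Mrpl33 stood at rank 38 per length with its most read annotated transcript, Mrpl33-203, of 2741 bases, which had 9 and 1 reads. With the deposited lengths of its most used but unannotated model, 465 and 467 bases, it stood at rank 2, and 9 of the 12 highest genes remained.

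The large-subunit share of member reads lay close to the large-subunit share of genes. Large-subunit genes took 4416 of 6876 member reads in replicate 1, which was 64.2% (Wilson 95% interval 63.1 to 65.3), and 3942 of 6107 in replicate 2, which was 64.5% (63.3 to 65.7). They made up 62.8% of the genes. The median level was 93.8 CPM for large-subunit and 91.4 CPM for small-subunit genes, and within each library the medians were 91.8 and 90.5 CPM in replicate 1 and 99.6 and 95.5 CPM in replicate 2. Of the 12 highest genes, 10 were of the large subunit and 2, Mrps6 and Mrps24, of the small subunit, and of the 12 lowest, 8 and 4. The intervals cover counting error only.

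Between the libraries, 3 of the 78 genes differed, all of them higher in replicate 1. This was 3 of 78 against 3.98% of all 8940 genes tested (two-sided exact binomial test on the library totals, Benjamini-Hochberg adjustment over all genes), and 2.6% of all genes were called in this direction, so the share of members lay near the background. Mrpl52 had 245 reads in replicate 1 and 135 in replicate 2, a log2 ratio of -0.76 ± 0.15 (counting SE), with an adjusted p of 5.68e-05 by that exact test. Mrps21 had 153 and 93 reads (log2 ratio -0.62 ± 0.19, adjusted p 0.0323 by the exact test). Mrpl23, a protein at the tunnel exit, had 71 and 33 reads (log2 ratio -0.996 ± 0.30, adjusted p 0.0245 by the exact test). At an unadjusted p below 0.05 the test took 9 members, or 11.5%, against 13.9% of all genes. The ratio of observed to expected spread, chi-square over its degrees of freedom, was 2.14 over the members and 2.16 over the 4819 tested genes with as many reads, and 3.15% of those genes were called.

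The 3 genes called had short transcripts, and short transcripts leaned to replicate 1 throughout. Their most read annotated transcripts measured 418 bases (Mrpl52), 488 bases (Mrps21) and 692 bases (Mrpl23). Of the 16 members whose transcript was shorter than 800 bases, 13 were higher in replicate 1, with a median log2 ratio of -0.23. Over all 654 tested genes of that length the median was -0.29 and 92 were called. In the 25 members of 2000 bases or more the median was -0.03, and 13 were higher in replicate 1. These 25 include Mrpl33 (log2 ratio -0.49) by the length of Mrpl33-203. With Mrpl33 placed by its leading unannotated model instead, 14 of 17 short members were higher in replicate 1 (median -0.24), and 12 of 24 long members (median 0.0026). Over all reads on annotated genes, the median length of a read's model was 1499 bases in replicate 1 and 1678 in replicate 2. Spearman's rho of the log2 ratio with length was 0.32 across the 78 members (0.37 with Mrpl33 at its unannotated model) and 0.13 across 8348 genes, given as a description across genes of the same 2 libraries. The part of length in the calls was not tested. For Mrpl23, the processed pseudogene Mrpl23-ps1 held 50 and 33 reads, and reads that the counting could have split between the gene and this copy make its level uncertain. The pseudogenes Mrpl48-ps, Mrps36-ps1 and Mrps36-ps2 had at most 6 reads in a library.

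**Figure D3:**
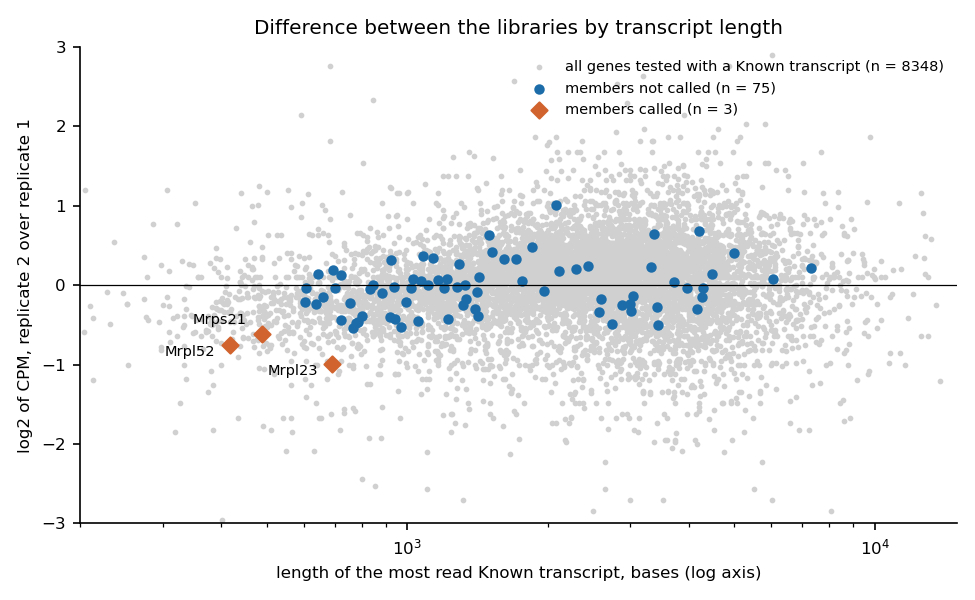
Log2 ratio of CPM, replicate 2 over replicate 1 (vertical axis), against the length in bases of the most read annotated transcript (horizontal log axis), for the 78 members (blue, and orange diamonds where called) over all 8348 tested genes with such a transcript (grey), of which 26 lie outside the axes. The 3 members called lie at 418, 488 and 692 bases and below 0.

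Member reads were mostly complete. A model is called complete here when its intron chain matches an annotated transcript (Known) or is a whole new chain made from annotated splice sites (NIC) or with an unannotated site (NNC). The other models cover part of a chain (ISM) or read into introns (Genomic). Complete models took 6465 of 6876 member reads in replicate 1, 94.0% (Wilson 93.4 to 94.6), and 5852 of 6107 in replicate 2, 95.8% (95.3 to 96.3). Over all annotated genes the shares were 84.0% and 88.3%. Protein-coding genes whose most read annotated transcript had at most 1500 bases came to 91.9% and 94.3%, beside 94.0% and 95.4% for the 47 members of that length. Partial models of members mostly lacked 5′ exons, with 283 of 362 and 176 of 213 partial reads. By gene, with the libraries summed, 70 members had at least 90% complete reads, Mrpl42 had the smallest share at 80.0%, and Mrpl52 had 100%.

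Most members were read as a single coding transcript. The most used model was an annotated protein-coding transcript in 77 of 78 genes and the principal isoform of the APPRIS annotation in 75, and its share was at least 90% in 47. Annotated protein-coding transcripts took 90.5% and 91.2% of complete reads, retained-intron transcripts 1.64% and 0.991%, and nonsense-mediated decay transcripts 0.247% and 0.137%. Of the 77 members with at least 20 complete reads in each library, 15 (19.5%) used 2 or more models at 10% or more in both libraries, beside 933 of all 4281 genes assessed (21.8%). Use of the leading model differed between the libraries in 0 of 75 members tested (two-sided Fisher's exact test with Benjamini-Hochberg adjustment over 4011 genes, of which 4, or 0.0997%, were called). At an unadjusted p below 0.05, 4 of the 75 members were taken, Mrpl33, Mrpl21, Mrpl42 and Mrpl52, beside 167 of all 4011 genes (4.16%), and the smallest adjusted p of a member by that exact test was 0.852.

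The exception among the leading models was Mrpl33, whose main structure is not in the annotation. Its gene lies on the plus strand of chromosome 5 (mm10). In the annotated coding transcript Mrpl33-201, exon 1 is followed by a coding exon of 19 bases and then by exon 3. The structure most often read instead left exon 1 at a donor 8 bases further downstream and joined exon 3 directly, with an intron at chr5:31614031-31616380 that skips the small exon. The sequences of both junctions are shown because they carry this difference, with 15 bases of exon 1 and 15 of exon 3 in lower case. Capitals mark what lies between them, the small exon at chr5:31614603-31614621 in the annotated transcript and the 8 added bases at chr5:31614023-31614030 in the unannotated one (plus strand, from GENCODE M21 transcripts on mm10).
Mrpl33-201, annotated: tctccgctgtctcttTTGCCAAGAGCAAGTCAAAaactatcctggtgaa
Mrpl33, unannotated structure: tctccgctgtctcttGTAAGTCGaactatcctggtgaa
The unannotated intron then starts with gtctgaggcggc, as read from the retained-intron transcript Mrpl33-203. The lengths between exons 1 and 3 differ by 11 bases, which is no multiple of 3. At its best ungapped placement, on the stretch GCAAGTCA of the small exon, the added GTAAGTCG is identical at 6 of 8 bases. The deposited models give aligned coordinates and no read bases, so which of these stretches the reads carried was not tested.

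This Mrpl33 structure took 140 of 183 complete reads in replicate 1, 76.5% (Wilson 69.9 to 82.1), and 108 of 122 in replicate 2, 88.5% (81.7 to 93.0). The difference of 12.0 percentage points between the libraries did not pass the adjusted test (unadjusted p 0.0104 and adjusted p 0.852 by Fisher's exact test). Both libraries thus had it as the leading model. The annotated coding junctions run from exon 1 to the small exon and from there to exon 3. In the aligned models they were read together 0 times in either library. By the floor of 3 reads this allows shares of up to 1.64% and 2.46%, and the Wilson upper limits were 2.06% and 3.05%. These limits cover counting error in the models as aligned. They do not bound the annotated coding form itself, because which stretch the reads carried was not tested. A join of the annotated donor of exon 1 to exon 3 without the small exon held 10 and 4 reads. Models with the small exon and another first exon held 9 and 2 reads. The remaining 23 and 7 reads lay on 7 other models, among them the annotated Mrpl33-203 and Mrpl33-206. Other models with the unannotated junction held 1 read in each library. After structures were matched between the libraries, the members had 323 and 295 NNC reads in all, and 183 and 187 without the leading Mrpl33 structure.

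**Figure D4:**
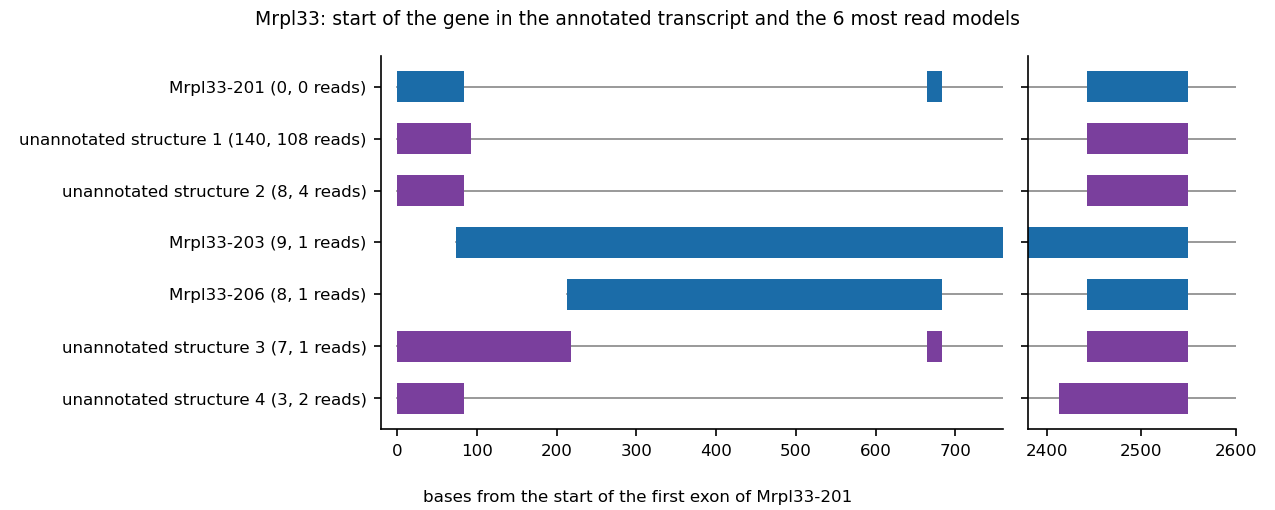
Exons (boxes) and introns (lines) at the start of Mrpl33 in the annotated coding transcript Mrpl33-201 and the 6 most read models, annotated in blue and unannotated in purple, with the reads of replicates 1 and 2 in brackets. The horizontal axis gives bases from the start of exon 1, with a gap between panels. Outer ends of unannotated structures are drawn at those of Mrpl33-201. The most read structure ends its first exon 8 bases later than Mrpl33-201 and lacks the exon of 19 bases.

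In 6 of the 15 members with several used models, the most used and the second annotated model encode different proteins. Splice differences of 4 genes are shown as sequence because they fall in or beside coding sequence, and capitals mark the bases that differ (GENCODE M21, mm10, plus strand). Mrps10 used acceptors 3 bases apart, and the longer form adds chr17:47372573-47372575.
Mrps10-203: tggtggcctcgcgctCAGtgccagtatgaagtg
Mrps10-204: tggtggcctcgcgcttgccagtatgaagtg
The shorter Mrps10-204 took 30 of 65 complete reads in replicate 1 (46.2%) and 30 of 56 in replicate 2 (53.6%). The longer Mrps10-203 took 28 (43.1%) and 20 (35.7%), so both forms were common in each library, and their coding sequences measure 600 and 603 bases. Mrps10 encodes a protein of the head of the small subunit.
Mrpl11, a protein at the base of the stalk, used a donor 24 bases further downstream in Mrpl11-204, which adds chr19:4963666-4963689.
Mrpl11-204: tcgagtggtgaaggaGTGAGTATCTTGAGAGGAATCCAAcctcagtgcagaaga
The annotated coding sequence of Mrpl11-204 ends 1 base into these 24 and measures 474 bases, against 576 in Mrpl11-201. Mrpl11-204 had 9 of 57 and 9 of 50 complete reads in replicates 1 and 2, and Mrpl11-201 had 45 and 39.
Mrps11 had the same kind of difference, with 6 bases more in Mrps11-205, an annotated target of nonsense-mediated decay, at chr7:78783681-78783686.
Mrps11-205: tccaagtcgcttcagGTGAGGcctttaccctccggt
Its coding sequence, 174 bases against 573 in Mrps11-201, ends 1 base into the 6. Mrps11-205 held 10 of 54 and 5 of 39 complete reads (18.5% and 12.8%).
Mrps18c-202 lacks a coding exon of 58 bases, chr5:100803053-100803110, shown whole.
Mrps18c exon absent from Mrps18c-202: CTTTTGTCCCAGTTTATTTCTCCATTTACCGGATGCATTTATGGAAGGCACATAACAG
Mrps18c-202 had 7 of 66 and 6 of 51 complete reads (10.6% and 11.8%), and Mrps18c-201, which keeps the exon, 56 and 39. The other members of this kind were Mrpl15 and Mrps23. Mrpl15-203, with another last intron and 612 coding bases against 885, took 11 of 55 and 13 of 85 complete reads. Mrps23-203, with 474 against 531, took 13.0% and 17.0%.

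In 5 members the second model leaves the coding sequence as it is. Mrps17, a protein of the small-subunit body, was the most divided gene of all, with 3 used models of 360 coding bases each. Mrps17-201 took 36.4% and 31.7%, Mrps17-205 took 18.6% and 22.1%, and Mrps17-203 had 13 of 118 and 18 of 104 complete reads. Mrpl24 likewise used 3 models with 648 coding bases, Mrpl24-202 at 46.6% and 46.7%, Mrpl24-201 at 23.9% and 25.3%, and Mrpl24-204 at 15.9% and 12.0%. For Mrpl30, Mrpl30-201 took 55.0% and 55.4%, and Mrpl30-205, which lacks an exon of 81 bases outside the coding sequence, took 21.6% and 24.3%. Mrps21, 1 of the genes called above, kept its leading transcript at 78.4% and 78.3% although its level differed between the libraries. Mrps12, a protein of the decoding centre, used Mrps12-201 at 71.9% and 63.4%. The order of models within each of these genes was the same in both libraries.

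The last 4 of the 15 have a second model with no annotated coding sequence. For Mrpl21 this was the retained-intron transcript Mrpl21-203, whose last exon runs 92 bases into the intron after it. Mrpl21-203 held 36 of 77 complete reads in replicate 1 (46.8%), as many as the coding Mrpl21-201, but 13 of 57 in replicate 2 (22.8%), where Mrpl21-201 had 39 (68.4%). Use of Mrpl21-201 against all other models had an unadjusted p of 0.0143 and an adjusted p of 0.897 by Fisher's exact test. The share of Mrpl21-203 itself was not tested. Mrpl51-202 took 14.4% and 19.7% of Mrpl51 reads, Mrps16-202 13.4% and 19.1% of Mrps16 reads, and the retained-intron transcript Mrpl57-202 19.6% and 17.6% of Mrpl57 reads. The coding transcript led in each of these 3 genes in both libraries.

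**Figure D5:**
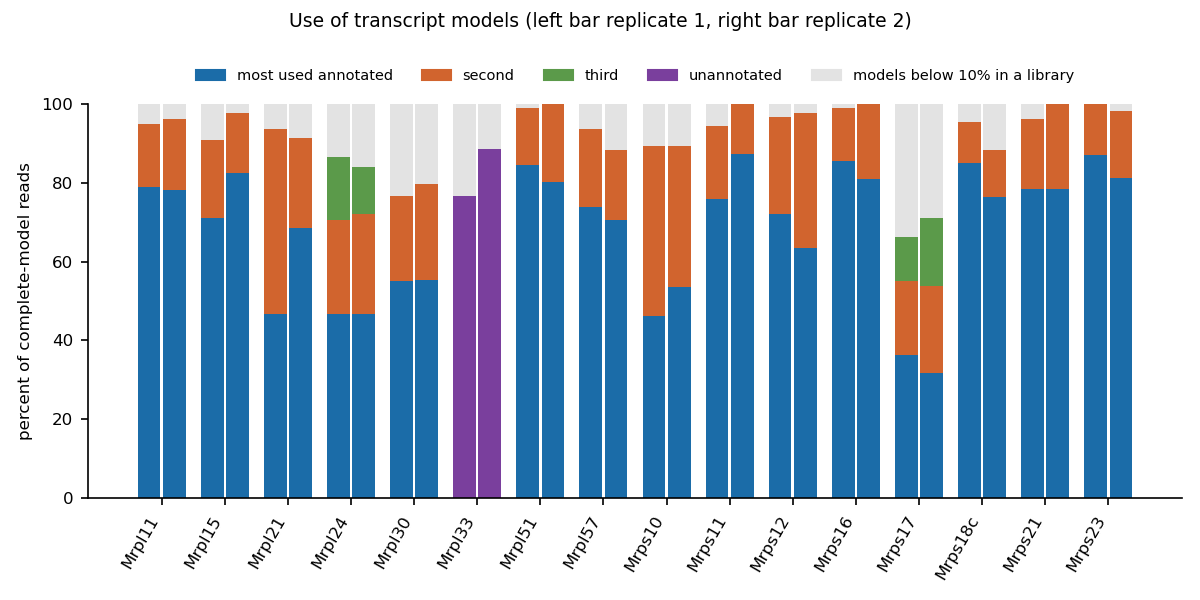
Share of complete-model reads (vertical axis, percent) taken by each model that reached 10% in both libraries, for the 15 members with at least 2 such models and for Mrpl33, with replicate 1 on the left and replicate 2 on the right of each pair. Grey is the sum of all other models, and the purple bars of Mrpl33 are its unannotated structure at 76.5% and 88.5%.

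Most unannotated structures of members rested on a single read. There were 338, of which 97 used annotated splice sites alone and 241 had a new site, in 74 genes. Of the 338, 243 had a single read, and 64 (18.9%) were seen in both libraries. The same shares were not computed over all annotated genes, so these counts are not a trait particular to the members. Structures with at least 5 reads in each library numbered 4. After Mrpl33 these were new combinations of annotated introns in Mrps17 (7 and 10 reads), Mrpl52 (7 and 6) and Mrpl24 (5 and 7). A second Mrpl33 structure, the direct join of exons 1 and 3 at annotated sites, had 8 and 4 reads. In Mrpl45 an acceptor 174 bases upstream of the annotated one was read 3 and 13 times, 1.88% and 7.07% of its complete reads. New introns joined annotated sites in Mrpl27 (6 and 3 reads), Mrpl9 (5 and 3) and Mrpl4 (3 and 3), and Mrps24 had a donor 21 bases upstream of an annotated one (3 and 4 reads).

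Promoter sequence was available from RefSeq (GRCm38.p6) for 69 of the 78 genes by symbol, as windows of 250 bases before to 50 bases after the start, and was searched on both strands. The whole motif of NRF1, a regulator of nuclear genes for mitochondria, is a palindrome of 10 bases, shown in capitals for Mrpl9 below, and was in 3 members (4.35%) and in 1.07% of all 27025 symbols with such a window. Its core GCATGC was in 9 members (13.0%, against 8.93%). The ETS motif ACCGGAAG, to which the GABP factor can bind, was in 9 members (13.0%, against 2.60%). The whole YY1 motif, of 11 bases, was in 5 (7.25%, against 0.755%), and its core AAGATGGCG, which every whole match contains, in 8 (11.6%, against 1.64%). Over the 8526 protein-coding symbols read in both libraries the shares were 2.58%, 11.7%, 5.93%, 2.01% and 3.94% in the same order. Median levels of members with a motif lay on either side of those without. They were 102 against 92.6 CPM for ETS and 102 against 91.3 CPM for the NRF1 core, but 76.4 against 94.2 CPM for the whole NRF1 motif, 84.2 against 96.2 CPM for the whole YY1 motif and 87.8 against 94.7 CPM for its core. The 100 bases before the start are shown for the 3 highest members with a whole NRF1 or ETS match there, with the match in capitals. They are Mrpl52 (ETS on the reverse strand, chr14:54426809-54426908, plus strand), Mrpl51 (ETS, chr6:125192100-125192199, plus strand) and Mrpl9 (NRF1, a palindrome, chr3:94443236-94443335, plus strand).
Mrpl52: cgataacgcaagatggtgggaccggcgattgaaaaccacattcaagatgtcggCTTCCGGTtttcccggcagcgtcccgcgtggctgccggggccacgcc
Mrpl51: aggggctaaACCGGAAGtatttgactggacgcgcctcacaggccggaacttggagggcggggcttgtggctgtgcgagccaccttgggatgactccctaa
Mrpl9: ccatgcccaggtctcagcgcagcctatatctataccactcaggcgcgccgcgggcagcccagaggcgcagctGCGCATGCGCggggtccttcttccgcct
A match is a stretch of letters and not a measured binding site.

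Many members start next to another gene. A protein-coding gene on the opposite strand started within 1000 bases upstream of 18 members (23.1%), against 11.2% of protein-coding genes read in both libraries and 6.78% of all protein-coding genes. The starts lay a median of 82.0 bases apart, 15 of the 18 partners were read in both libraries, and the member was the higher of the pair in 16. The 2 exceptions were Mrpl49, at 91.0 CPM beside Fau at 801 CPM, and Mrpl32, at 73.2 CPM beside the proteasome gene Psma2 at 371 CPM. Both were picked out after their values were seen.

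Among other genes of mitochondrial translation, the ribosomal proteins with other names had a median level near that of the members, and the other lists had lower medians. Those 5 genes (Dap3, Ptcd3, Chchd1, Aurkaip1 and Gadd45gip1) had a median of 102 CPM, with Aurkaip1 highest at 219 and 169 CPM, Dap3 at 115 and 96.9 CPM, Chchd1 at 123 and 80.3 CPM and Gadd45gip1 at 87.9 and 76.1 CPM. Ptcd3, at 27.2 and 31.8 CPM, lay far below the other 4. All 24 genes of ribosome assembly and ribosomal RNA modification were read in both libraries, with a median of 28.0 CPM. The highest of them were Malsu1 (67.2 and 60.9 CPM), Rbfa (49.1 and 48.4), Fastkd2 (34.9 and 59.5) and Mterf3 (53.0 and 40.1). Of 13 translation factors 12 were read in both libraries, with a median of 22.1 CPM. They were led by the elongation factor Tufm (140 and 170 CPM), the membrane insertase Oxa1l (114 and 125), the exchange factor Tsfm (107 and 98.3) and the elongation factor Gfm1 (55.6 and 74.7). The 6 genes of mitochondrial transcription and RNA stability had a median of 29.1 CPM, led by the RNA-binding protein gene Slirp (177 and 149 CPM), Tefm (33.6 and 38.7), Tfam (33.6 and 31.8) and Lrpprc (22.0 and 29.1). Of 9 nuclear regulators 8 were read in both, with Myc at 67.2 and 74.7 CPM, Nrf1 at 34.9 and 41.5, Gabpb1 at 19.4 and 33.2 and Gabpa at 27.2 and 22.1, while the coactivator gene Ppargc1a had 1 and 0 reads. Of the mitochondrial ribosomal RNAs, mt-Rnr2 had 24 and 21 reads and mt-Rnr1 1 and 0. How fully the libraries captured these RNAs was not tested, so the counts are not taken as their levels in the cells. In these 6 lists 0 genes in either direction were called between the libraries by the exact binomial test. The lists held 59 genes, of which 54 were tested, and 3 of them, Aurkaip1, Chchd1 and Fastkd2, had an unadjusted p below 0.05 by that exact test. Over all genes tested, 3.98% were called and 13.9% had such an unadjusted p.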

How the data were processed

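Long reads of 2 C2C12 libraries were analysed from deposited tables of raw counts per transcript model on mm10 with GENCODE M21, per the file headers and the deposit's notes. Unannotated models carry TALON as their source in the authors' deposited annotations, and the aligner is not given in the sources used here. The authors' tables also give exon numbers and lengths. Counts were summed per gene and scaled to CPM over annotated-gene reads. Models were matched between libraries by intron chain. Library differences were tested with a two-sided exact binomial test on genes with at least 10 reads, and use of the leading model with Fisher's exact test on genes with at least 20 complete reads in each library, both with Benjamini-Hochberg adjustment at 0.05 over all genes tested (Python 3.11.15, scipy 1.17.1). Both tests were checked on simulated data that held counting error only. Chi-square over its degrees of freedom was 2.49 over all genes tested here, so the check does not cover this wider spread of gene counts. The tests compare 2 libraries, not conditions, and intervals, floors, standard errors and p-values cover counting error only. Log2 ratios used an offset of 0.5 reads. Scaling by TMM (edgeR 4.0.16) and by DESeq2 1.42.0 size factors, read filters and model classes were varied. Placing Mrpl33 by its unannotated model was added after the data were seen.

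The members and lists were chosen with earlier results of these data known. Members named are the 12 highest and 6 lowest, those called, the 12 with most complete reads among those with several used models, the 10 most repeated unannotated structures, the paralogs and members of another subunit, Mrpl12, and the ends and middle of each role group. For other lists the 4 highest genes are named. Mrps11, Mrps12, Mrpl57, Mrpl32, Ppargc1a, Ptcd3 and the genes named for an unadjusted p were added after their values were seen. Sequences came from GENCODE M21 transcripts and RefSeq promoters.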

Additional observations from a re-analysis of the deposited data

How the results depend on the processing

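No paired analysis was possible because the series has 1 group. Under the alternatives, 5 members in place of 3 were called between the libraries with TMM sizes, with DESeq2 size factors (both of which came out at 1), with at least 50 reads and with complete models only. Each time these were the same 3 genes plus Mrpl20 and Mrpl33, both higher in replicate 1. The DESeq2 setting, with equal factors, compared raw counts without correction for the larger read total of replicate 1. It moved log2 ratios toward replicate 1, for Mrpl20 from -0.53 to -0.63, so it is no separate support for the added calls. With no read filter 2 were called, without Mrps21 (adjusted p 0.0513 by the exact binomial test). Background shares there were 4.34%, 4.27%, 8.57%, 4.36% and 2.12%. The summed level was 9558.9 CPM with complete models only, against 8670.7, and 8450.9 to 8890.5 with a library left out. The large-subunit share was 68.0% when Mrps18a and Mrps30 counted as large and Mrps36 was left out, 63.9% per transcript length, 65.5% per length with Mrpl33 at its unannotated model (chosen after seeing the data) and 65.5% without the highest gene of each subunit, against 64.4%, and 64.2% to 64.5% with a library left out. Annotated models alone made 88.4% of member reads, against 94.9% for complete models, which gave 94.0% to 95.8% with a library left out. Members with several used models numbered 15, and 5 at a share of 20%, 20 at 5%, and 16 to 18 with a library left out. Over all genes assessed, the share with several used models was 21.8% in the main setting, 9.998% at 20% and 34.2% at 5%. It was 28.3% without replicate 2 (16 members) and 28.7% without replicate 1 (18 members). With annotated models alone it was 18.2%, and the members numbered 15. Isoform calls were 0 under every alternative run. The 68.0% share is of a changed gene set, in which large-subunit genes make up more than the 62.8% of the main grouping. The level of 9558.9 CPM was scaled to complete-model reads in place of all annotated-gene reads. What caused the other shifts was not tested. Genes near the lower end rest on few reads: Mrpl1 had 23 and 15.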
